A study of Mus musculus with 8 samples.

Results

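The genes described here encode the calcium-dependent kinase CaMKII (*Camk2a*, *Camk2b*, *Camk2d* and *Camk2g*), the catalytic subunits of the calcium-dependent phosphatase calcineurin (*Ppp3ca* and *Ppp3cb*) and the transcription factors that calcineurin activates (*Nfatc1*, *Nfatc2*, *Nfatc3* and *Nfatc4*). The genes were chosen by name, and every array probe whose transcript accession maps to 1 of these 10 genes was kept, which gave 18 of 41174 probes. Of these, 16 were bright enough to be tested, among 25604 tested probes in all. Whole hearts of mouse embryos were taken at E18.5, and their total RNA was measured on Agilent arrays with a single dye, 1 heart per array, to ask which transcripts differ when SIRT1, an NAD+-dependent protein deacetylase, is lost. The 4 WT hearts and the 4 SIRT1 KO hearts came from C57BL/6J mice, and the SIRT1 KO is a whole-body germ-line knockout, so that every cell type of the heart carries it. Embryos of both sexes were used and nothing in the labels pairs a WT with a SIRT1 KO embryo. A level below is log2 of the array signal minus the 75th percentile of that array, a difference is the level in the SIRT1 KO group minus that in the WT group, and a probe passed the threshold at an adjusted p of 0.05 over all tested probes in limma.

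When calcium rises in a cardiomyocyte it binds calmodulin, and calcium-loaded calmodulin switches on both CaMKII and calcineurin. CaMKII phosphorylates calcium channels, the ryanodine receptor and phospholamban, and exports class IIa histone deacetylases from the nucleus, which frees the transcription factor MEF2. Calcineurin removes phosphates from NFAT proteins, which then enter the nucleus and act with GATA4 and other factors, a route known for its part in valve formation in the embryo and in hypertrophic growth of the postnatal heart. These proteins are controlled largely by calcium and by phosphorylation, whereas the arrays measured transcript levels and not kinase, phosphatase or nuclear NFAT activity.

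On each array between 24481 and 26725 probes were well above background and 0 spots were saturated. The 10 cardiomyocyte markers were well above background. By their brightest probes 7 were higher and 3 lower, and 0 passed the threshold in limma, with 2 at an unadjusted p under 0.05. A dimmer *Myh7* probe did pass (0.36, adjusted p = 0.0284 from limma). Their summed level, in units of each array's 75th percentile, was 1621 to 1774 in WT hearts and 1752 to 2006 in the hearts labelled SIRT1 KO, which overlap. Markers of other tissues also moved with the groups or with single hearts. The summed level of the erythroid markers, in units of each array's 75th percentile, was 220 to 261 in WT hearts and 174 to 216 in the hearts labelled SIRT1 KO, without overlap. Most of that sum was the globin gene *Hba-a1*, which differed by -0.23 (adjusted p = 0.206 from limma). Of the 5 measured erythroid markers 2 were higher and 3 lower, and the embryonic globin gene *Hbb-y* rose by 0.92 (adjusted p = 0.00784 from limma). The summed level of the liver markers was 3.39 to 11.0 in WT hearts and 4.01 to 48.1 in the hearts labelled SIRT1 KO, where *Alb* was highest in replicate 1 (log2 level 4.33) and replicate 4 (3.32). The part of these in the results below was not tested. All WT arrays lie on 1 slide and all SIRT1 KO arrays on the other, with a scan of its own for each slide, so slide and genotype cannot be told apart. The brighter *Sirt1* probe (A_52_P358612) was higher in the arrays labelled SIRT1 KO, with a log2 difference of 0.54 (SE 0.11, adjusted p = 0.0324 from limma), and the other *Sirt1* probe differed by -0.11 (adjusted p = 0.589 from limma). Where these probes lie relative to the deleted part of *Sirt1* was not analysed here. Since neither was lower past the threshold, the genotypes rest on the labels and the second group is called the hearts labelled SIRT1 KO.

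Of the 10 genes, *Camk2g* and *Nfatc4* rose in the hearts labelled SIRT1 KO, by 1.39-fold and 1.30-fold, and no gene fell past the threshold. These are 2 of the 16 tested probes, beside 4.86% of all tested probes past the threshold 3.95% being higher and 0.91% lower. Against WT, 11 of the 16 probes were higher and 5 lower, with a median log2 difference of 0.06 against 0.01 for all tested probes. This split depended on the scaling of the arrays, with 8 higher and 8 lower under quantile normalization and 5 higher and 11 lower under median scaling or without scaling. The genotypes did not overlap for 3 of the 16 probes, all of them higher, beside 13.7% of all tested probes (8.6% higher and 5.08% lower). In whole hearts, fewer cells of a type and less RNA per cell cannot be told apart.

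**Figure D1:**
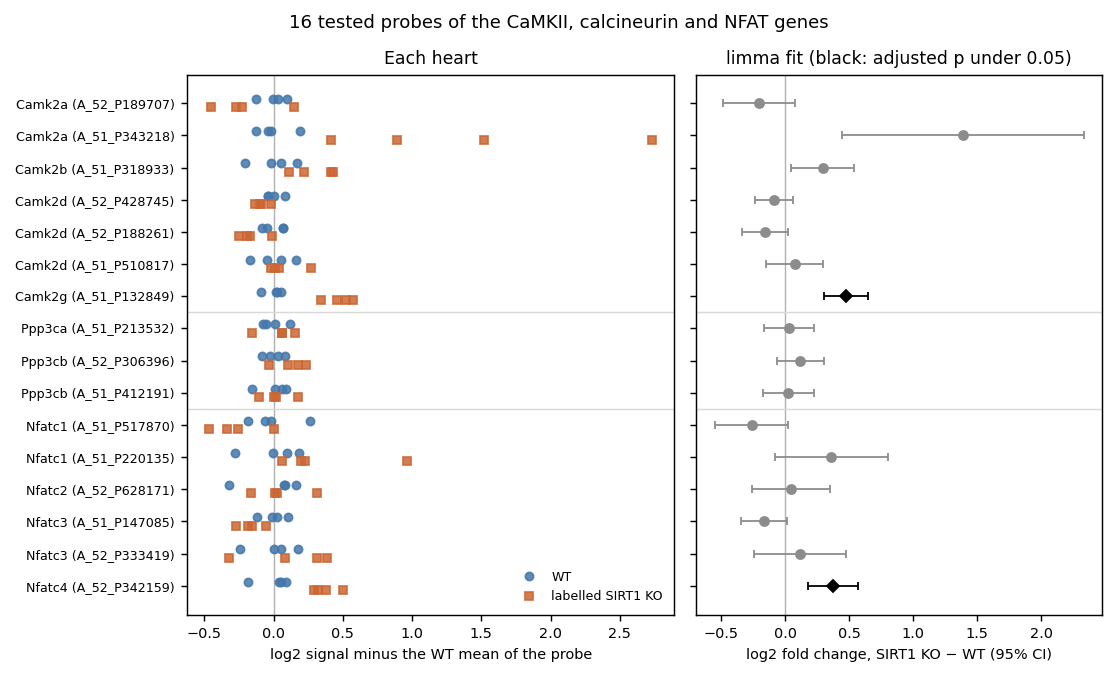
Each row is 1 of the 16 tested probes, grouped by family with grey lines between the families. On the left, points give the log2 level of each heart minus the WT mean of the probe (blue circles WT, orange squares labelled SIRT1 KO), and on the right the symbols give the log2 difference with its 95% confidence interval from limma. The 2 black diamonds, *Camk2g* at 0.47 and *Nfatc4* at 0.37, passed the threshold, and the dim *Camk2a* probe has the widest interval, from 0.44 to 2.34.

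*Camk2g* encodes CaMKII gamma, a kinase isoform found in many tissues and, with CaMKII delta, the form of the kinase known from heart muscle. Its single probe (A_51_P132849) had log2 levels of 3.43, 3.29, 3.39 and 3.40 in the WT hearts and of 3.95, 3.90, 3.83 and 3.72 in the hearts labelled SIRT1 KO. The lowest heart labelled SIRT1 KO lay above the highest WT heart. The means were 3.38 ± 0.06 (SD, n = 4) and 3.85 ± 0.10 (SD, n = 4), a log2 difference of 0.47 (SE 0.08, 95% confidence interval 0.30 to 0.65, adjusted p = 0.00958 from limma). An exact two-sided permutation test gave p = 0.0286, the smallest that 4 against 4 allow. With any 1 heart left out, the difference lay between 0.44 and 0.52 and passed the threshold in all 8 fits. Without scaling between the arrays it was 0.26 (adjusted p = 0.088 from limma), the only 1 of 21 alternatives in which it did not pass.

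*Camk2d* encodes CaMKII delta, the main CaMKII isoform of cardiomyocytes. On its brightest probe (A_52_P428745) the levels were 4.15, 4.23, 4.11 and 4.11 in WT hearts and 4.05, 4.13, 4.01 and 4.06 in the hearts labelled SIRT1 KO. The genotypes overlapped, and the log2 difference was -0.09 (SE 0.07, 95% confidence interval -0.24 to 0.06, adjusted p = 0.487 from limma). The other *Camk2d* probes gave -0.16 (A_52_P188261, adjusted p = 0.295) and 0.07 (A_51_P510817, adjusted p = 0.703), both by limma. On A_51_P510817 the sign turned under median scaling (-0.05) and without scaling (-0.15), and with 1 heart left out it lay between 0.0094 (without replicate 1 labelled SIRT1 KO) and 0.13 (without WT replicate 1). Without scaling, A_52_P188261 passed the threshold with a difference of -0.38 (adjusted p = 0.0239 from limma).

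*Camk2a* and *Camk2b* encode the alpha and beta isoforms, best known from neurons. The brighter *Camk2a* probe (A_52_P189707) had levels of 1.52, 1.40, 1.62 and 1.56 in WT hearts and 1.25, 1.30, 1.07 and 1.67 in the hearts labelled SIRT1 KO. Replicate 4 labelled SIRT1 KO was the highest of the 8 hearts and the other 3 of its group were the lowest, and the log2 difference was -0.20 (SE 0.12, 95% confidence interval -0.48 to 0.08, adjusted p = 0.385 from limma). Without replicate 4 labelled SIRT1 KO it was -0.32 (adjusted p = 0.0977 from limma) and without replicate 3 of that group -0.12.

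The dimmer *Camk2a* probe (A_51_P343218) had levels of -4.89, -5.13, -5.21 and -5.10 in WT hearts and -4.19, -2.35, -3.57 and -4.67 in the hearts labelled SIRT1 KO. All 4 hearts labelled SIRT1 KO lay above all 4 WT hearts and were spread over a wider range, with an SD of 1.00 against 0.14. The WT levels lay near the lowest signals well above background on the WT arrays (-5.85 to -5.55), so the size of the difference is uncertain. The log2 difference was 1.39 (SE 0.42, adjusted p = 0.1 from limma) and was 0.94 without replicate 2 labelled SIRT1 KO. It passed the threshold under normexp background correction (0.76, adjusted p = 0.0276), with array weights (1.69, adjusted p = 0.0423) and without replicate 4 labelled SIRT1 KO (1.72, adjusted p = 0.0429), all by limma.

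*Camk2b* (A_51_P318933) had levels of -2.38, -1.99, -2.11 and -2.18 in WT hearts and -1.74, -1.95, -1.75 and -2.06 in the hearts labelled SIRT1 KO. Of the latter only replicate 4 lay below the highest WT heart, and the log2 difference was 0.29 (SE 0.11, 95% confidence interval 0.05 to 0.54, adjusted p = 0.166 from limma). Because these isoforms are abundant in neurons, neuronal and glial markers were read beside them. Of 20 neuron and cardiac ganglion markers 10 were measured, and 8 of the 20, among them *Nefm*, *Prph*, *Syt1*, *Dbh*, *Snap25* and *Th*, stayed near background on every array. Of the 10 measured, 8 were higher and 2 lower, with a median log2 difference of 0.09. The summed level of the list, in units of each array's 75th percentile, was 4.92 to 6.27 in WT hearts and 6.35 to 8.66 in the hearts labelled SIRT1 KO, and most of it was *Syn1*, a synaptic vesicle gene (3.08 to 4.27 and 4.54 to 6.62). The other 9 measured markers summed to 1.76 to 1.92 in WT hearts and 1.68 to 2.04 in the hearts labelled SIRT1 KO, which overlap. *Syn1* was left out of this sum because it had passed, and the brightest of the 9, *Uchl1*, differed by 0.004. The overlap therefore says little of the dimmer markers. *Syn1* was the 1 marker of this list past the threshold, with 0.73 (adjusted p = 0.024 from limma). *Elavl4*, which encodes a neuronal RNA-binding protein, differed by -0.46 without overlap (adjusted p = 0.0608 from limma). On the higher side, *Tubb3* differed by 0.50 (adjusted p = 0.0622) and *Elavl3* by 0.56 (adjusted p = 0.097), both by limma. Of 7 Schwann and glial markers 5 were measured, 4 higher and 1 lower. *Sox10* rose by 0.80 (adjusted p = 0.0199) and *Foxd3* by 0.60 (adjusted p = 0.0226), both by limma. Both are dim, with WT means of -4.69 and -5.09, and *Foxd3* was well above background on 3 WT arrays. The brighter *Mbp* and *S100b* differed by -0.22 and 0.03. The summed level was 1.51 to 1.92 in WT hearts and 1.44 to 1.89 in the hearts labelled SIRT1 KO. The part of such cells in the *Camk2a* and *Camk2b* values was not tested.

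Both calcineurin catalytic genes were well above background in every heart, and neither passed the threshold. *Ppp3ca* (A_51_P213532), which encodes the alpha catalytic subunit, had levels of 3.53, 3.64, 3.47 and 3.44 in WT hearts and 3.58, 3.37, 3.67 and 3.58 in the hearts labelled SIRT1 KO. The groups overlapped widely, with a log2 difference of 0.03 (SE 0.09, 95% confidence interval -0.17 to 0.23, adjusted p = 0.872 from limma).

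*Ppp3cb*, which encodes the beta catalytic subunit, had levels on its brighter probe (A_52_P306396) of 1.55, 1.50, 1.39 and 1.45 in WT hearts and 1.70, 1.58, 1.44 and 1.65 in the hearts labelled SIRT1 KO. Replicate 3 labelled SIRT1 KO lay among the WT hearts and the other 3 above them, and the log2 difference was 0.12 (SE 0.08, 95% confidence interval -0.06 to 0.30, adjusted p = 0.426 from limma). Its dimmer probe (A_51_P412191) differed by 0.02 (95% confidence interval -0.18 to 0.22, adjusted p = 0.905 from limma). The signs of the *Ppp3ca* and *Ppp3cb* differences turned under median scaling, to -0.10 for *Ppp3ca*, and to -0.01 and -0.11 for the *Ppp3cb* probes. The intervals of the 3 probes ended at 0.30 on the higher side and at -0.18 on the lower side.

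Among the NFAT genes, *Nfatc4* rose. Its single probe (A_52_P342159) had levels of -0.42, -0.19, -0.20 and -0.14 in WT hearts and of 0.09, 0.27, 0.06 and 0.14 in the hearts labelled SIRT1 KO. All 4 hearts labelled SIRT1 KO lay above the 4 WT hearts. The means were -0.24 ± 0.13 (SD, n = 4) and 0.14 ± 0.09 (SD, n = 4), a log2 difference of 0.37 (SE 0.09, 95% confidence interval 0.18 to 0.57, adjusted p = 0.0442 by limma, exact two-sided permutation test p = 0.0286). This call was close to the threshold and passed in 8 of 21 alternatives, in which the difference lay between 0.15 and 0.41 and the adjusted p from limma or the methods' analysis of variance between 0.0191 and 0.294. With 1 heart left out the difference lay between 0.31 and 0.41 and passed in 1 of 8 fits, the fit without replicate 3 labelled SIRT1 KO.

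**Figure D2:**
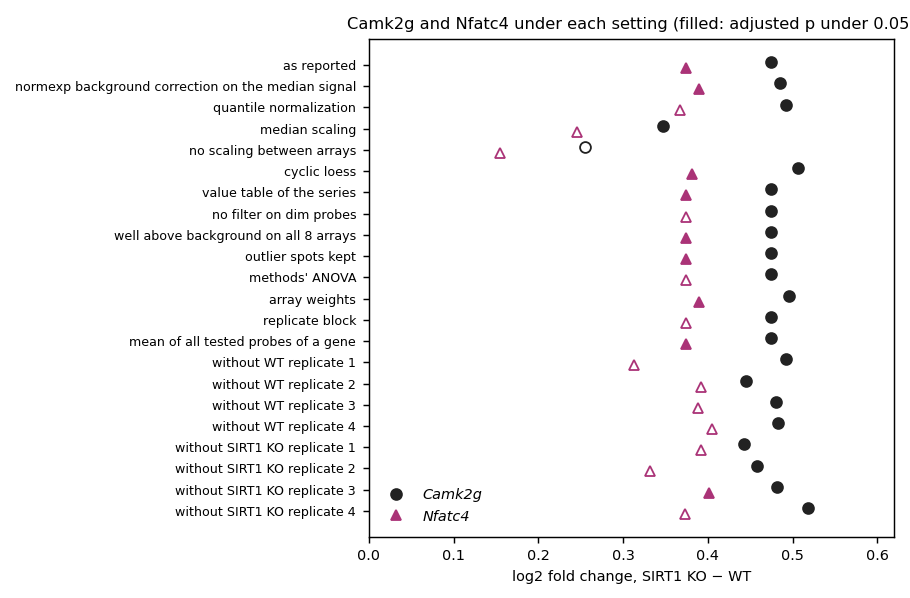
The log2 difference of *Camk2g* (black circles) and *Nfatc4* (purple triangles) as reported and under 21 alternatives, 1 per row, where a filled symbol has an adjusted p under 0.05. *Camk2g* is filled in 20 of the alternatives and *Nfatc4* in 8, while both are higher in the hearts labelled SIRT1 KO in all of them, down to 0.26 and 0.15 without scaling between arrays.

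The upstream sequence of *Nfatc4* is printed because it is, of the 2 genes past the threshold, the one with a RefSeq promoter window at hand. It covers chr14:55824545-55824844 on the plus strand of GRCm38.p6, from 250 bases before to 50 bases after the annotated start of the gene, 5′ to 3′. Capitals mark GGAAA, the core that NFAT proteins contact, or its reverse complement TTTCC.

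Nfatc4: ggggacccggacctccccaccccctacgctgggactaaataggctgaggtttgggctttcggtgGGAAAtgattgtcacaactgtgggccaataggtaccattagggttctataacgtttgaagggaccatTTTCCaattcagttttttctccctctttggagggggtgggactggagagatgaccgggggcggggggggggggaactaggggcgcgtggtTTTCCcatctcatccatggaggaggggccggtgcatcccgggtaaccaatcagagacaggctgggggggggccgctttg

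The *Nfatc4* window held 3 matches to GGAAA on either strand. Among the 8 windows of 6 of the 10 genes, *Ppp3cb* held 4 matches, *Nfatc2* held 1 and 3 in its windows, *Camk2d* held 1, *Nfatc3* held 1 and 0, and *Camk2b* held 0. A match of these letters is common, since 61.4% of 32841 windows of 300 bases held at least 1, so it describes the sequence and does not mark a bound site. The cAMP response element TGACGTCA was in 0 of the 8 windows, beside 1.79% of all windows. TATAAA, searched on both strands, was in 1 of the 8, the second *Nfatc2* window, beside 13.6% of all windows.

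*Nfatc3* encodes an NFAT factor present in embryonic myocardium. On its brighter probe (A_51_P147085) the levels were -0.01, 0.21, 0.10 and 0.13 in WT hearts and -0.05, 0.05, -0.17 and -0.08 in the hearts labelled SIRT1 KO. Only WT replicate 1 lay within the range of the hearts labelled SIRT1 KO, and the log2 difference was -0.17 (SE 0.08, 95% confidence interval -0.35 to 0.01, adjusted p = 0.262 from limma). It passed the threshold in 1 alternative, without scaling between arrays (-0.39, adjusted p = 0.0354 from limma). The dimmer probe (A_52_P333419) differed by 0.11 (SE 0.16, adjusted p = 0.717 from limma), a sign that turned under quantile normalization (-0.04), median scaling (-0.01), cyclic loess (-0.02) and without scaling (-0.10). With 1 heart left out it lay between 0.03 and 0.26.

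*Nfatc1* encodes the NFAT factor of the endocardium, required there for valve formation. Its brighter probe (A_51_P517870) had levels of -0.71, -0.26, -0.54 and -0.59 in WT hearts and -0.78, -0.52, -0.99 and -0.86 in the hearts labelled SIRT1 KO. The groups overlapped, and the log2 difference was -0.26 (SE 0.13, 95% confidence interval -0.55 to 0.02, adjusted p = 0.27 from limma). The dimmer probe (A_51_P220135) had levels of -2.59, -2.13, -2.22 and -2.32 in WT hearts and -2.09, -2.12, -2.26 and -1.35 in the hearts labelled SIRT1 KO, a difference of 0.36 (SE 0.19, adjusted p = 0.322 from limma) in which replicate 4 labelled SIRT1 KO was the highest. Without that heart the difference was 0.16, and without WT replicate 2 the difference of the brighter probe was -0.17. All 9 endothelial and endocardial markers were measured and 0 passed the threshold in limma, with 1 at an unadjusted p under 0.05. Each was lower in the mean of the hearts labelled SIRT1 KO, by between -0.26 and -0.03, with a summed level of 45.9 to 55.3 in WT hearts and 41.3 to 47.5 in the hearts labelled SIRT1 KO. Their part in the *Nfatc1* values was not tested.

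*Nfatc2* encodes an NFAT factor best known from T lymphocytes. Of its 3 probes only A_52_P628171 was bright enough to be tested, with levels of -2.89, -3.29, -2.88 and -2.80 in WT hearts and -3.13, -2.94, -2.65 and -2.95 in the hearts labelled SIRT1 KO. The groups overlapped, with a log2 difference of 0.05 (SE 0.13, 95% confidence interval -0.26 to 0.35, adjusted p = 0.868 from limma) whose sign turned under quantile normalization (-0.05), median scaling (-0.08), cyclic loess (-0.03) and without scaling (-0.17). The probe A_51_P195849 was well above background on 0 WT arrays and on 1 array labelled SIRT1 KO, and A_51_P195843 on none, so no fold is given for either. Of 10 T cell and thymus markers on the array 2 were measured and 3 (*Cd4*, *Cd3g* and *Rag2*) stayed near background on every array. The measured ones were *Lck* at -0.70 (adjusted p = 0.068 from limma) and *Dntt* at 0.80 (adjusted p = 0.114 from limma), each without overlap, with *Dntt* well above background on 3 WT arrays. The summed level of all 10, those near background included, was 0.148 to 0.286 in WT hearts and 0.147 to 0.212 in the hearts labelled SIRT1 KO. The part of such cells in the *Nfatc2* values was not tested.

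Whether probes of the same gene moved unequally was tested on the log2 ratio of each pair of probes within an array, which a constant shift of the whole array leaves unchanged, though quantile normalization and cyclic loess do not. The 10 genes gave 7 such pairs, and 0 of them passed the threshold in limma, beside 1.16% of 8640 pairs over all genes, while 2 had an unadjusted p under 0.05. For *Camk2a* the log2 ratio of the brighter to the dimmer probe was 6.42, 6.53, 6.84 and 6.66 in WT hearts and 5.44, 3.65, 4.64 and 6.35 in the hearts labelled SIRT1 KO. All 4 values of the latter were below the WT values, and the difference was -1.59 (SE 0.47, adjusted p = 0.145 from limma). For *Nfatc1* the ratio was 1.88, 1.87, 1.67 and 1.73 in WT hearts and 1.31, 1.59, 1.27 and 0.49 in the hearts labelled SIRT1 KO, again without overlap, with a difference of -0.62 (SE 0.20, adjusted p = 0.175 from limma). For both genes the brighter probe was lower and the dimmer one higher in the hearts labelled SIRT1 KO, so neither has a direction that its probes share. The other 5 pairs had adjusted p between 0.297 and 0.738 in limma.

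The balance of related genes was compared in the same way, as the log2 ratio of the brightest probes of genes of the same family within an array. Such a ratio carries the brightness of each probe, so only its difference between the genotypes is read. Of 13 pairs, 5 did not overlap between the genotypes, each with an exact two-sided permutation p of 0.0286 and, adjusted over the 13 pairs, 0.0743, so that 0 passed the threshold. The share of such pairs among other gene families was not computed, so the count of 5 is not read as an excess. For single genes, which is a different measure, 13.9% of all measured genes did not overlap. The 13 pairs also share genes and are not independent. The exact test of 4 against 4 can give no smaller p, so a pair could pass only if most of the 13 pairs reached it. The count of 0 past the threshold was thus nearly fixed by the design, and no conclusion is drawn from it. The smallest adjusted p over all alternatives was 0.0619.

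The ratio of *Camk2d* to *Camk2g* was 0.72, 0.94, 0.71 and 0.71 in WT hearts and 0.10, 0.23, 0.18 and 0.33 in the hearts labelled SIRT1 KO. The difference of the means was -0.56, and all 4 hearts labelled SIRT1 KO lay below the WT hearts. The ratio of *Nfatc3* to *Nfatc4* was 0.41, 0.40, 0.29 and 0.27 in WT hearts and -0.14, -0.22, -0.22 and -0.22 in the hearts labelled SIRT1 KO, a difference of -0.54 with a gap between the groups wider than the range of either. The other pairs without overlap were *Camk2a* to *Camk2g* (-0.68), *Nfatc1* to *Nfatc4* (-0.64) and *Camk2b* to *Camk2d* (0.38). Of these 5 pairs 4 hold *Camk2g* or *Nfatc4*, the genes that rose. With the mean of all tested probes of a gene in place of the brightest, the *Camk2a* to *Camk2g* difference was 0.12. The ratio of *Ppp3ca* to *Ppp3cb* overlapped between the genotypes, with a difference of -0.09 (exact two-sided permutation test p = 0.4).

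**Figure D3:**
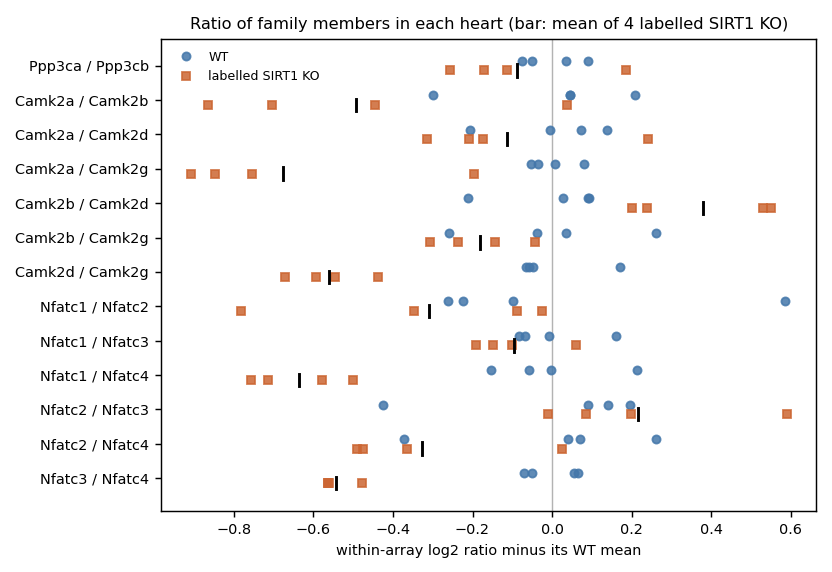
Log2 ratio of 2 genes of the same family within each array, minus the WT mean of that ratio, for 13 pairs (blue circles WT hearts, orange squares hearts labelled SIRT1 KO, black bars the mean of the latter). In 5 pairs the orange squares lie wholly to 1 side of the blue circles, among them *Camk2d* to *Camk2g* at -0.56 and *Nfatc3* to *Nfatc4* at -0.54. The share of such pairs among other gene families was not computed.

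The surrounding pathway was read from 9 lists that hold 106 genes beside the members, of which 97 were measured, each by its brightest probe. In the hearts labelled SIRT1 KO 44 were higher and 53 lower, with a median log2 difference of -0.02 against -0.01 for all 13587 measured genes. *Dyrk1b* rose and 0 genes fell, beside 4.55% of all measured genes past the threshold (3.65% higher and 0.898% lower), and 20 of the 97 had an unadjusted p under 0.05, beside 2764 of all 13587 measured genes. *Dyrk1b* encodes a kinase related to DYRK1A, which phosphorylates NFAT proteins and so prepares their export from the nucleus. Its levels (A_51_P511985) were -1.87, -1.98, -1.91 and -1.77 in WT hearts and -1.30, -1.39, -1.39 and -1.51 in the hearts labelled SIRT1 KO, without overlap. The log2 difference was 0.48 (SE 0.08, 95% confidence interval 0.31 to 0.66, and in limma adjusted p = 0.00971), and it passed in 20 of 21 alternatives, between 0.26 and 0.52. Its other probes gave 0.91 (adjusted p = 0.0028) and 0.14 (adjusted p = 0.478) in limma.

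The remaining NFAT kinases and transport genes did not pass, with 9 of the 13 measured genes of that list higher, *Dyrk1b* included, and a median of 0.02. *Dyrk1a* itself differed by 0.02, *Gsk3a* by -0.04 and *Gsk3b* by -0.07, the last pair encoding the kinases that oppose calcineurin on NFAT. Among the 19 measured inhibitors and anchors of calcineurin 8 were higher and 11 lower, with a median of -0.03. *Homer2*, a scaffold that competes with calcineurin for NFAT, had the smallest p of this list, with levels of 1.83, 1.63, 1.82 and 1.80 in WT hearts and 1.49, 1.39, 1.57 and 1.48 in the hearts labelled SIRT1 KO. The groups did not overlap, and the log2 difference was -0.29 (SE 0.08, adjusted p = 0.0703 from limma). The other *Homer2* probes gave -0.17 and -0.04, and the mean of its probes -0.16 (adjusted p = 0.343 from limma), while without scaling the difference was -0.51, and it passed in 4 of 21 alternatives. *Rcan1*, the calcineurin inhibitor that NFAT itself induces, differed by -0.22 (95% confidence interval -0.51 to 0.08, adjusted p = 0.374 from limma).

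The NFAT-responsive and hypertrophy genes were 3 higher and 10 lower of 13 measured, with a median of -0.08. *Il6*, an inflammatory cytokine, had the smallest p (adjusted p = 0.0511 from limma), but it was well above background on 4 WT arrays and on 1 array labelled SIRT1 KO, so the amount of its difference is not given. *Nppa* and *Nppb*, which encode natriuretic peptides, differed by -0.33 (adjusted p = 0.53 from limma) and -0.41 (adjusted p = 0.555 from limma), with wide spreads. *Acta1* (0.36, adjusted p = 0.0913 from limma) and *Myh7* (0.31, adjusted p = 0.136 from limma), sarcomere genes of the fetal program, lay on the higher side without overlap.

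The substrates of CaMKII in excitation and relaxation were 8 higher and 3 lower of 11 measured, with a median of 0.12. *Cacna1c*, the pore of the L-type calcium channel, had levels of 0.47, 0.21, 0.49 and 0.65 in WT hearts and 0.94, 0.71, 0.67 and 0.92 in the hearts labelled SIRT1 KO. The lowest of the latter lay just above the highest WT heart, and the log2 difference was 0.35 (SE 0.11, adjusted p = 0.114 from limma). *Ryr2*, the calcium release channel of the sarcoplasmic reticulum, differed by 0.12, *Pln*, which encodes phospholamban, by 0.06, and *Atp2a2*, its target pump, by 0.01, with adjusted p between 0.56 and 0.944 in limma.

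The calmodulin genes and other calmodulin-dependent kinases were 3 higher and 6 lower of 9 measured, with a median of -0.15 and *Pnck* the gene of smallest p (0.42, adjusted p = 0.226 from limma). The genes listed as CaMKII inhibitors and anchors were 4 higher and 2 lower of 6. *Spry4*, whose place in that list was not checked here, had the smallest p (adjusted p = 0.116 from limma). Its dim probe was well above background on 3 WT arrays and 4 arrays labelled SIRT1 KO, so its fitted difference of 0.75 is uncertain. The class IIa HDAC and MEF2 genes were 5 higher and 7 lower of 12, with a median of -0.03, and *Hdac5*, a class IIa deacetylase exported after phosphorylation by CaMKII or protein kinase D, did not overlap between the genotypes (0.34, SE 0.10, adjusted p = 0.106 from limma). The genes of calcium entry upstream of calcineurin were 3 higher and 11 lower of 14, with a median of -0.06 and *Orai2* the gene of smallest p (-0.24, adjusted p = 0.182 from limma). Of the other calcineurin and NFAT family genes 1 was higher and 2 lower of 3 measured, with *Nfat5*, the NFAT relative that answers to tonicity and not to calcineurin, at 0.32 (adjusted p = 0.16 from limma).

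Over all 180 tested probes of these 97 genes, 6 probes of 5 genes passed the threshold, 4 higher and 2 lower, where 4.86% of all tested probes passed. Beside the 2 *Dyrk1b* probes these were dimmer probes of *Myh7* (0.36), *Ppp3r1* (0.84), *Plcb1* (-0.43) and *Rcan2* (-0.31). The brightest probes of the same genes gave 0.31, -0.09, -0.33 and -0.09. For *Ppp3r1*, which encodes the regulatory subunit of calcineurin, the probe that rose (A_52_P474379) had levels of -4.06, -3.99, -3.86 and -4.11 in WT hearts and -2.92, -3.33, -3.42 and -3.02 in the hearts labelled SIRT1 KO (SE 0.12, adjusted p = 0.00681 from limma). Its genotypes did not overlap, whereas the other *Ppp3r1* probes differed by -0.09 (adjusted p = 0.708) and 0.13 (adjusted p = 0.524) in limma, so the probes of this gene do not share a direction.

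**Figure D4:**
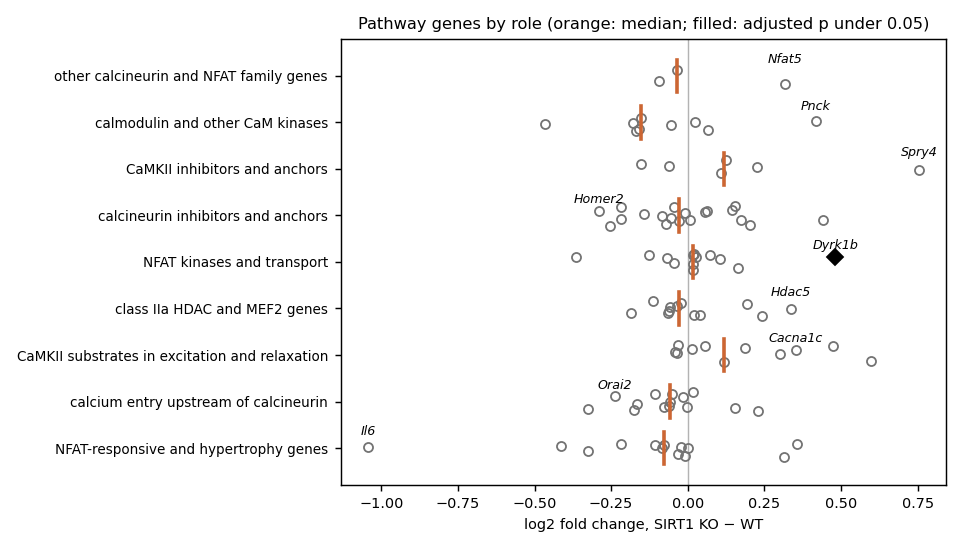
Log2 difference of each measured pathway gene between hearts labelled SIRT1 KO and WT hearts, with 1 row per list, orange bars at the medians and the gene of smallest p named. Of the 97 genes only *Dyrk1b* (black diamond, 0.48) passed the threshold, and the medians of the 9 lists lie between -0.15 and 0.12.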

How the data were processed

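The authors deposited, for each of the 8 arrays, the intensity of every spot from Agilent's Feature Extraction software, background-subtracted and not scaled between arrays; the software version is given as 12.0.0.7 in the file headers. A deposited table of the series held the same intensity values for 100% of spots. Control and outlier spots were left out, log2 was taken, the 75th percentile of each array over non-control spots was subtracted, and spots of a probe were averaged. Probe accessions named 28223 probes (68.5%) through RefSeq genes of GRCm38.p6, used for names only. All probes, named or not, with a signal well above background in 4 or more of the 8 hearts were tested for genotype with limma 3.58.1 in R 4.3.3 with Benjamini-Hochberg adjustment. On simulated arrays with 200 of 25604 probes changed by a log2 difference of 1, the fit found 89.5% of them and made 6.28% of its calls among unchanged probes. The differences of *Camk2g*, *Nfatc4* and *Dyrk1b* were smaller than 1, so this share does not say how many changes of their size would be found. The number of arrays limits the precision, and p-values measure the spread between hearts of the same slide.

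The members and gene lists were chosen with earlier results of these data known. The text names all member probes, pathway genes past the threshold, the gene of smallest p in each list, and marker genes past the threshold; other genes were named after their values were seen, for their known role. A gene with several probes is given by its brightest tested probe. Alternatives covered background correction, scaling, the dim-probe filter, outlier spots, the methods' analysis of variance, array weights, a replicate block, the mean of probes and each heart left out. Slide could not be fitted as a block. Other software was Python 3.11.15 with pandas 2.3.3, numpy 2.4.6 and, for plots, matplotlib 3.10.9. Probe positions and protein sequences were not analysed here.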

Additional observations from a re-analysis of the deposited data

Results flagged for a closer look

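Among 76 groups of 4 hearts checked, 3 held a heart that stood apart from the other 3 by Dixon's criterion, and chance marks about 1 in 20 groups. The log2 ratio of *Camk2d* to *Camk2g* was 0.94 in WT replicate 2 and between 0.71 and 0.72 in the other WT hearts, on the side away from the hearts labelled SIRT1 KO. The log2 ratio of *Nfatc2* to *Nfatc3* was -3.50 in WT replicate 2 and between -2.98 and -2.88 in the other WT hearts. The log2 ratio of *Nfatc3* to *Nfatc4* was -0.14 in replicate 1 labelled SIRT1 KO and -0.22 in each of the other 3, and all 4 lay below the WT hearts.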

How the results depend on the processing

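*Camk2g* kept its direction in all 21 alternatives and *Nfatc4* too, while *Nfatc4* no longer passed the threshold under quantile normalization (adjusted p = 0.0514), median scaling (0.0983), no scaling (0.294), no filter on dim probes (0.089), the methods' analysis of variance (0.076), the replicate block (0.0592) and 7 of 8 fits with 1 heart left out (limma except for the analysis of variance). Of the member probes, 1 passed under each of the settings named here except no scaling, where 2 passed, and 1 to 2 passed with 1 heart left out (2 without replicate 3 and 2 without replicate 4 labelled SIRT1 KO). The highest count over the alternatives was 3, and the dimmer *Camk2a* probe passed with normexp and with array weights. Over all probes, 1245 passed as reported, 2528 with normexp, 6351 without scaling, 545 with the analysis of variance, 2124 with array weights, and 657 to 1742 with 1 heart left out. Their higher share was 81.3% as reported, 63.7% under quantile normalization, 70.4% under cyclic loess, 38.1% under median scaling and 10% without scaling, where the median difference of all probes was 0.01, -0.02, -0.01, -0.12 and -0.21. Of the pathway genes, 1 passed as reported, 7 with normexp, 2 under quantile normalization, 3 under median scaling, 20 without scaling, 2 under cyclic loess, 5 with array weights, 3 with the replicate block, 3 with the mean of probes, and 1 to 4 with 1 heart left out, the highest without SIRT1 KO replicate 3. Of the probe pairs within a gene 1 passed with normexp and 1 without SIRT1 KO replicate 4, so 0 to 1 with 1 heart left out. Signs turned for *Camk2d* A_51_P510817 (-0.054 median scaling, -0.15 no scaling), *Nfatc2* (-0.053 quantile, -0.080 median scaling, -0.17 no scaling, -0.029 cyclic loess, -0.026 array weights, and -0.059 to 0.12 with 1 heart left out, below 0 without WT replicate 2 and, at -0.042, without replicate 3 labelled SIRT1 KO), the dimmer *Nfatc3* probe (-0.040 quantile, -0.014 median scaling, -0.10 no scaling, -0.018 cyclic loess), *Ppp3ca* (-0.087 normexp, -0.098 median scaling, -0.19 no scaling, and -0.010 to 0.092 with 1 heart left out, below 0 without SIRT1 KO replicate 3), the dimmer *Ppp3cb* probe (-0.014 quantile, -0.11 median scaling, -0.20 no scaling, -0.033 array weights, and -0.030 to 0.066 with 1 heart left out, below 0 without WT replicate 2 and, at -0.027, without replicate 4 labelled SIRT1 KO), the brighter one (-0.0088 median scaling, -0.100 no scaling) and *Orai2* (0.068 normexp). With the mean of all probes of a gene, *Camk2a* was at 0.59, *Nfatc1* at 0.049, and the ratios of *Camk2a* to *Camk2b* at 0.30, to *Camk2d* at 0.65 and to *Camk2g* at 0.12, of *Nfatc1* to *Nfatc2* at 0.00081 and to *Nfatc3* at 0.075. The cause was not tested. The labels do not say whether replicate numbers pair the hearts, and the values do not settle it. Same-numbered hearts correlated in their deviations at only 0.06 to 0.21, while 4 of 4 WT hearts correlated best with their own number. The fit as reported used no pairing. The replicate block left 1178 of all probes past the threshold, *Nfatc4* not among them. The 18 probes include 2 of *Nfatc2* at background, for which signal over background limits any comparison.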
